A study of Capra hircus with 29 samples.

Results

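GDF9, BMP15, the receptors that bind them and the SMADs that carry their signal were followed in goat oocytes of different follicle sizes and fertility groups. The 10 genes were chosen by symbol: the ligands GDF9 and BMP15, the receptors BMPR1A, BMPR1B, BMPR2 and TGFBR1, and the signal transducers SMAD2, SMAD3, SMAD4 and SMAD5. Each symbol belonged to 1 of the 21343 genes in the expression table. All 10 genes passed the filter on low values, which asks for more than 0.5 FPKM in at least 4 samples of a comparison, in every comparison.

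Transcripts were measured by RNA-seq in oocytes of untreated Ji'Ning grey goats, a domestic breed with high fecundity, whose age the sources used here do not give. H and L mark the high and low fertility groups (per the labels, more than 3 kids a birth against fewer than 2; per the methods, 3 or more against 2 or fewer), and the middle letter marks large (over 7 mm), medium or small (under 3 mm) follicles. HLO, LLO, HMO, LMO and LSO had 5 samples each and HSO had 4, with 29 samples in all. Each sample held 2 to 3 oocytes. Ovaries of 15 goats were used per population, and, as stated for the high fertility group, the oocytes of each follicle size were pooled before they were divided into samples. Which goats contributed to a sample is not known. The p-values below therefore measure the spread between these samples, which can be smaller than the spread between goats. The surrounding granulosa cells (GCs) were not analysed here.

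GDF9 and BMP15 are growth factors of the transforming growth factor-beta superfamily that the oocyte secretes toward the GCs of its own follicle. A ligand joins the type II receptor BMPR2 with a type I receptor, which then phosphorylates receptor-regulated SMADs inside the receiving cell. GDF9 signals through TGFBR1 to SMAD2 and SMAD3, BMP15 through BMPR1B to the branch that holds SMAD5, and SMAD4 is the common partner of both branches. The pair is known for its part in follicle growth and cumulus expansion, and sheep that inherit altered GDF9, BMP15 or BMPR1B genes differ in ovulation rate.

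Levels are given as FPKM, fragments counted per length of transcript and per library size, so that genes can be compared per length within a sample. The sum of FPKM per sample ranged from 222697 to 490048, and 6646 to 8689 genes (median 7980) exceeded 0.5 FPKM. FPKM keep no read count, so no counting error can be given. LLO replicate 2, LLO replicate 5 and LMO replicate 2 stood apart, with mean correlations to the other samples of 0.806, 0.809 and 0.834 against at least 0.8645 in all others. The summed level of oocyte markers was 1444 to 9913 FPKM, that of GC and cumulus markers 10.8 to 71.1 FPKM, that of theca and stroma markers 2.94 to 18.9 FPKM and that of leukocyte markers at most 0.672 FPKM. Among the GC markers, AMH, AMHR2 and NR5A1 were listed at 0 in all 29 samples, whereas STAR lay above 0.5 FPKM in all 29, with a mean of 18.8 FPKM. Since these are bulk samples, fewer cells of a type and less RNA per cell cannot be told apart in any of the values.

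Each ligand stood above each of the receptors and SMADs in every oocyte sample. The margin was narrowest for GDF9 over SMAD5, with 33.1 against 17.1 FPKM in LLO replicate 2. In LMO replicate 2 it was 31.9 against 14.1 FPKM. GDF9 (ENSCHIG00000008167) had 312 ± 227 FPKM (SD, n = 29), a mean above that of 98.8% of the genes. BMP15 (ENSCHIG00000015206) had 152 ± 56.4 FPKM (SD, n = 29), above 97.9% of the genes. The 2 ligands differed in how steady they were. The coefficient of variation over samples was 72.5% for GDF9 and 37.0% for BMP15. Among the 590 tested genes with a mean above 100 FPKM, the median coefficient was 47.1%, and 88.0% of these genes varied less than GDF9 whereas 20.8% varied less than BMP15.

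GDF9 ranged from 31.9 to 974 FPKM, and this spread lay within the groups. In order of replicate number, HLO had 368, 102, 131, 95.8 and 494 FPKM. LLO had 434, 33.1, 90.5, 504 and 210 FPKM. In large follicles the samples of both fertility groups thus covered about the same wide range and overlapped. HMO had 556, 89.8, 226, 246 and 551 FPKM, and LMO had 284, 31.9, 130, 513 and 463 FPKM. HSO replicates 1, 3, 4 and 5 had 387, 160, 221 and 974 FPKM, and LSO had 268, 86.9, 189, 696 and 525 FPKM. The group means ran from 436 ± 371 FPKM (SD, n = 4) in HSO down to 238 ± 182 FPKM (SD, n = 5) in HLO, and each of the 5 gaps between neighbours in that order was smaller than the larger SD of the pair.

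BMP15 was more even, from 67.6 to 306 FPKM. The oocytes of large follicles had 182, 104, 99.3, 125 and 154 FPKM in HLO and 96.9, 170, 67.6, 167 and 180 FPKM in LLO. In medium follicles, HMO had 79.3, 235, 91.9, 79.3 and 121 FPKM and LMO had 174, 306, 118, 220 and 179 FPKM. Of the 5 HMO samples 4 lay at or below 121 FPKM, HMO replicates 2 and 5 lay inside the LMO range, and the groups overlapped. HSO replicates 1, 3, 4 and 5 had 98.1, 118, 184 and 201 FPKM, and LSO had 216, 182, 96.4, 191 and 188 FPKM. LMO had the highest mean, 199 ± 69.6 FPKM (SD, n = 5), and HMO the lowest, 121 ± 65.7 FPKM (SD, n = 5).

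The receptors were present at low levels. TGFBR1 (ENSCHIG00000022353), the type I receptor used by GDF9, was the most abundant of the 4, with 3.48 ± 1.31 FPKM (SD, n = 29) and a range of 0.382 to 6.34 FPKM. It exceeded 0.5 FPKM in 28 of the 29 samples. BMPR1B (ENSCHIG00000017761), the type I receptor used by BMP15, had 1.10 ± 0.477 FPKM (SD, n = 29) and exceeded 0.5 FPKM in 28 samples. BMPR1A (ENSCHIG00000000448), a further type I receptor for bone morphogenetic proteins, had 0.749 ± 0.452 FPKM (SD, n = 29), and BMPR2 (ENSCHIG00000020243), the type II receptor that both ligands share, had 0.736 ± 0.365 FPKM (SD, n = 29). These last 2 exceeded 0.5 FPKM in 18 and 20 of the 29 samples. The group means of BMPR1B ran from 1.45 ± 0.701 FPKM (SD, n = 4) in HSO to 0.839 ± 0.322 FPKM (SD, n = 5) in HMO. Those of BMPR1A ran from 0.887 ± 0.299 FPKM in LLO to 0.631 ± 0.509 FPKM in HMO (SD, n = 5 each), and those of BMPR2 from 0.857 ± 0.375 FPKM (SD, n = 5) in LSO to 0.533 ± 0.134 FPKM (SD, n = 4) in HSO. HMO thus had the lowest mean of both BMPR1A and BMPR1B. In the order of the group means of each receptor, every one of the 5 neighbouring gaps was smaller than the larger SD of its pair.

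The SMADs formed an abundant and a scarce pair. SMAD2 (ENSCHIG00000020206), which carries the signal of TGFBR1, had 9.24 ± 6.13 FPKM (SD, n = 29), and SMAD5 (ENSCHIG00000014806), which carries that of BMPR1A and BMPR1B, had 9.10 ± 3.25 FPKM (SD, n = 29). Their means were almost equal, whereas SMAD2 varied from 1.96 to 19.5 FPKM and SMAD5 from 4.74 to 17.1 FPKM. SMAD3 (ENSCHIG00000013774), which shares the receptor of SMAD2, had 0.702 ± 0.387 FPKM (SD, n = 29), and SMAD4 (ENSCHIG00000019181), the common partner, had 0.570 ± 0.294 FPKM (SD, n = 29). In the order of group means, 5 of 5 neighbouring gaps lay within the larger SD for SMAD2, SMAD4 and SMAD5, and 4 of 5 for SMAD3, whose mean was highest in LLO (median 0.877 FPKM) and lowest in HLO, with 0.391 ± 0.155 FPKM (SD, n = 5; median 0.465 FPKM). SMAD4 was the lowest of the 10 genes, above 0.5 FPKM in 16 of 29 samples. In the RefSeq annotation of assembly ARS1.2, the span of SMAD2 overlapped that of the long non-coding gene LOC108633793. Whole gene spans were compared, not exons, and no strand setting is stated for the libraries. Some of the reads given to SMAD2 may therefore belong to that gene.

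**Figure D1:**
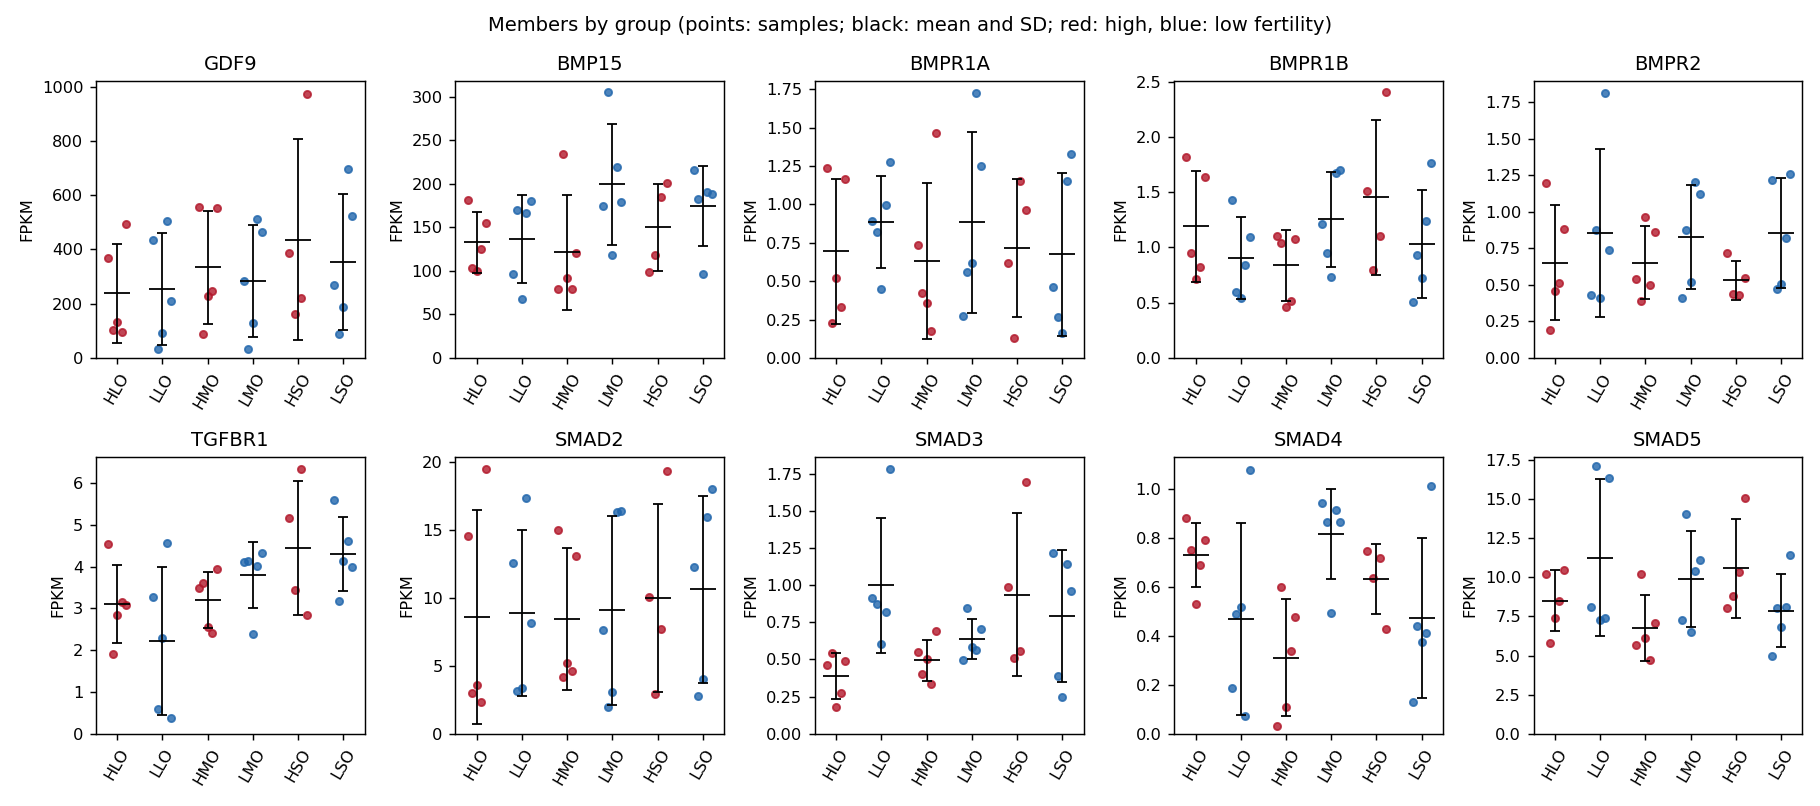
FPKM of each of the 10 genes by group, where a point is a sample, the black bar and whiskers are the mean and SD, red is the high and blue the low fertility group, and each panel has its own axis from 0. GDF9 reached 974 FPKM and BMP15 306 FPKM whereas no receptor exceeded 6.34 FPKM, and the fertility groups of a follicle size overlap in every panel except SMAD3 between HLO and LLO.

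The balance of the ligands to each other and to the receptors was described by ratios of FPKM within a sample, with no test. GDF9 exceeded BMP15 in 23 of 29 samples, and the ratio of GDF9 to BMP15 ran from 0.104 to 7.01 with a median of 1.96. The group medians were 1.32 in HLO, 1.34 in LLO, 3.10 in HMO, 1.63 in LMO, 2.65 in HSO and 1.96 in LSO. Every group except HSO, of which no sample numbered 2 was analysed here, held at least 1 sample on the BMP15 side, and the ranges of all 6 groups overlapped. Without the 3 libraries that stood apart the ratio ran from 0.383 to 7.01 with a median of 2.18.

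The summed level of both ligands was 42.9 to 174 times that of the 4 receptors, with a median of 70.3. This ratio had group medians of 62.5 in HLO, 81.6 in LLO, 90.3 in HMO, 76.3 in LMO, 59.2 in HSO and 62.2 in LSO, and its ranges overlapped between the fertility groups in each follicle size. The highest value belonged to HSO replicate 5, the sample with the most GDF9. The summed level of the 4 SMADs was 2.08 to 7.83 times that of the receptors, with a median of 2.91, and 2.08 to 5.41 times without the libraries that stood apart.

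**Figure D2:**
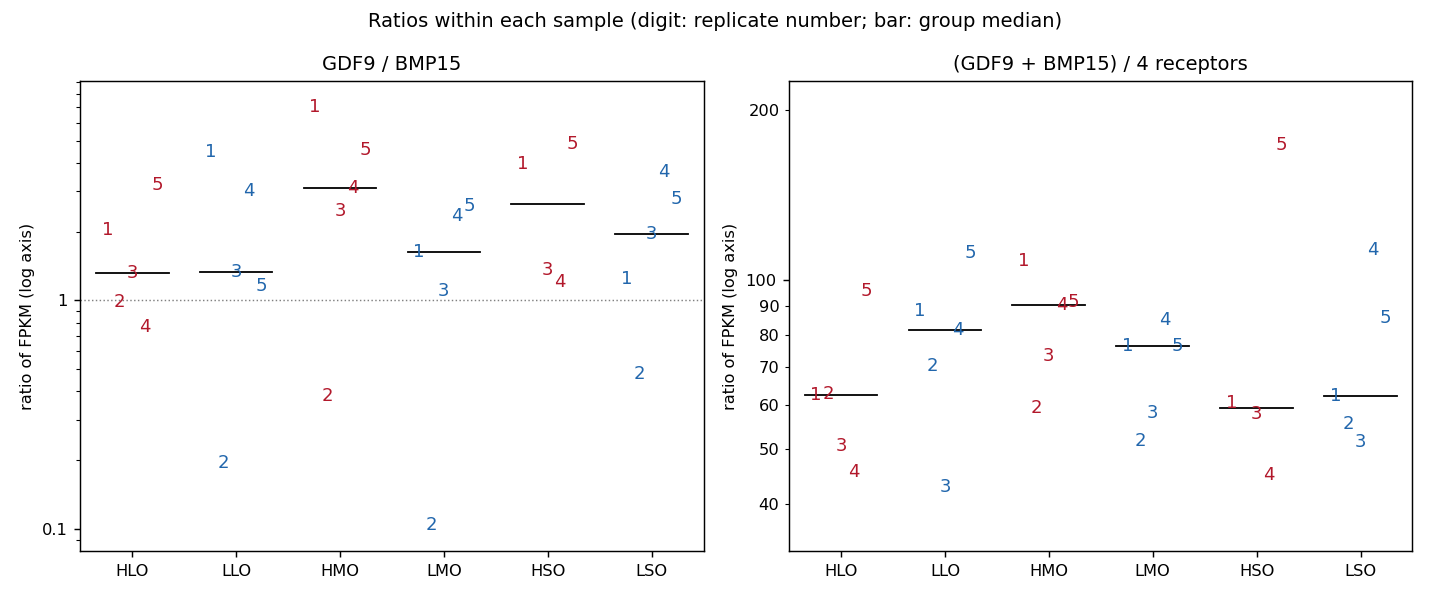
Ratio of GDF9 to BMP15 (left) and of both ligands to the 4 receptors (right) in each sample on log axes, where a digit is the sample's replicate number, the bar is the group median, and red and blue mark high and low fertility. The ratio of GDF9 to BMP15 spans 0.104 to 7.01, and the digits 2 lie below 1, the dotted line, in all 5 groups that hold one.

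GDF9 differed between sets of replicate numbers, although the samples numbered 4 spanned both levels. The 6 samples in which BMP15 exceeded GDF9 were the 5 numbered 2 and HLO replicate 4. GDF9 was 210 to 974 FPKM (median 448) in the 12 samples numbered 1 or 5 and 31.9 to 226 FPKM (median 102) in the 11 numbered 2 or 3, and SMAD2 was 7.65 to 19.5 FPKM against 1.96 to 5.18 FPKM. BMP15 was 79.3 to 216 FPKM (median 177) against 67.6 to 306 FPKM (median 118), with ranges that overlapped widely. The 6 samples numbered 4 had 95.8 to 696 FPKM of GDF9 and 2.33 to 17.3 FPKM of SMAD2 and so lay with neither set. This division of the numbers was chosen after the data were seen and was not tested. The number of genes above 0.5 FPKM moved with it, 7699 to 8452 against 6646 to 7527, and was 7251 to 8689 in number 4. What the replicate numbers stand for is not given, and the part of the number of detected genes in these levels was not tested.

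The first question of the design is whether the oocytes of the high and low fertility groups differ within a follicle size. Differences are high minus low fertility on the scale log2(FPKM + 1), which understates changes at low FPKM, with limma's moderated test and Benjamini-Hochberg adjusted p-values over all genes tested. In large follicles SMAD3 had the lowest p of the 10 genes, and the ligands did not differ detectably. SMAD3 had 0.465, 0.544, 0.182, 0.272 and 0.490 FPKM in HLO and 0.915, 0.877, 0.607, 0.820 and 1.79 FPKM in LLO. All HLO samples lay below all LLO samples, with LLO replicate 5 well above the rest. SMAD3 met the filter on low values through LLO, the group in which it was higher, since it exceeded 0.5 FPKM in 5 LLO samples and in 1 HLO sample. The log2 difference was -0.51 (95% interval -0.95 to -0.07; limma's unadjusted p 0.0269, adjusted p 0.828), and an exact two-sided permutation test gave p = 0.00794, the smallest that 5 against 5 samples allow.

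Of the 10 genes, 0 passed an adjusted p of 0.05 in large follicles in limma's test, where 0% of the 8328 genes did. At an unadjusted p under 0.05, SMAD3 was 1 of 10, against 4.14% of all genes tested. It was also the 1 member without overlap between the groups, against 0.432% of all genes tested, and by the exact permutation test it was again the only one of the 10 with an unadjusted p under 0.05, against 3.85% of all genes tested. Since SMAD3 entered the test through the group in which it was high, these counts do not set the members apart. The SMAD3 difference lost an unadjusted p under 0.05 in limma's test when HLO replicate 3 (p 0.0762), HLO replicate 4 (p 0.0606) or LLO replicate 5 (p 0.0638) was left out. Without the 2 LLO libraries that stood apart it was -0.36 (limma's p 0.0796). STAR, listed among the GC markers, also separated HLO from LLO, with 17.6 to 30.0 FPKM against 5.11 to 17.3 FPKM and thus in the opposite direction to SMAD3. The list as a whole did not move with STAR: of the 4 GC markers tested, 2 had a higher and 2 a lower mean log2 level in HLO, with HAS2 at -0.53 and GJA1 at -0.17. The summed GC markers were 25.8 to 46.6 FPKM in HLO and 19.4 to 29.4 FPKM in LLO, and without STAR 7.80 to 21.2 FPKM and 8.40 to 17.0 FPKM. The part of STAR in the SMAD3 values was not tested.

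For GDF9 the log2 difference between HLO and LLO was 0.15 with a 95% interval of -1.54 to 1.83, and for BMP15 it was 0.02 with an interval of -0.99 to 1.03. These intervals leave room for differences of over 1 on the log2 scale in either direction for GDF9. Without the 2 LLO libraries that stood apart the GDF9 difference turned to -0.52. TGFBR1 had 4.54, 1.91, 2.85, 3.15 and 3.09 FPKM in HLO and 3.27, 0.598, 2.28, 4.56 and 0.382 FPKM in LLO. Its lowest values belonged to the 2 LLO libraries that stood apart, the groups overlapped, and the log2 difference was 0.52 (95% interval -0.38 to 1.42). Leaving out LLO replicate 2 gave 0.32, leaving out LLO replicate 5 gave 0.27, and leaving out both gave -0.09, so the direction rested on these libraries.

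In medium follicles the differences farthest from 0 on their own error were those of SMAD4 and BMP15, both with lower means in the high fertility group, and neither passed the adjusted threshold. SMAD4 had 0.0300, 0.601, 0.110, 0.338 and 0.477 FPKM in HMO and 0.944, 0.864, 0.492, 0.914 and 0.866 FPKM in LMO. LMO replicate 3 alone fell within the HMO range, and the other LMO samples lay above every HMO sample. SMAD4 met the filter on low values through LMO, the group in which it was higher, since it exceeded 0.5 FPKM in 4 LMO samples and in 1 HMO sample. The log2 difference was -0.48 (95% interval -0.83 to -0.13; limma's unadjusted p 0.0106, adjusted p 0.358), and the exact two-sided permutation test gave p = 0.0159. With any of the 10 samples left out, limma's unadjusted p for SMAD4 stayed between 0.00463 and 0.0360. Since SMAD4 entered the test through LMO, this range adds no support of its own.

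For BMP15 the log2 difference between HMO and LMO was -0.78 (95% interval -1.63 to 0.07; limma's unadjusted p 0.0698, adjusted p 0.596; exact permutation p 0.0873). HMO replicate 2, with 235 FPKM, stood above the other HMO samples, and without it the difference was -1.05 and limma's unadjusted p 0.0145. Without LMO replicate 3 limma's unadjusted p was 0.0347, and without LMO replicate 2, a library that stood apart, the difference was -0.61 (limma's p 0.128). GDF9 had a log2 difference of 0.48 with an interval of -1.13 to 2.10, which was 0.88 without HMO replicate 2 and turned to -0.16 without LMO replicate 2. SMAD5 had one of -0.48 with an interval of -1.14 to 0.19 and BMPR1B one of -0.29 with an interval of -0.72 to 0.14.

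In the comparison of HMO with LMO, limma's test put 0 of the 10 genes past an adjusted p of 0.05, against 0.0715% of the 8390 genes tested, and 1, SMAD4, at an unadjusted p under 0.05, against 8.67% of all genes. By the exact permutation test 1 gene, SMAD4 again, had an unadjusted p under 0.05, against 9.96% of all genes. No member was free of overlap between the groups, against 1.70% of all genes. Since SMAD4 entered the test through LMO, the group in which it was high, these counts do not set the members apart. With limma's array weights, which give libraries unlike their group less weight, SMAD4 (log2 difference -0.55, adjusted p 0.0252), BMPR1B (-0.59, adjusted p 0.0411) and BMP15 (-0.93, adjusted p 0.0477) passed. That setting moved the median difference of all genes from -0.07 to -0.32, and put 319 genes higher and 692 genes lower in HMO past the adjusted threshold, 12.1% of all genes. These 3 calls depend on the weights. STAR was also lower in HMO, with 8.54 to 15.6 FPKM against 19.8 to 39.0 FPKM in LMO, and the summed GC markers were 17.5 to 28.8 FPKM in HMO and 28.3 to 71.1 FPKM in LMO. Without STAR the sums overlapped, with 7.68 to 14.6 FPKM in HMO and 5.71 to 45.1 FPKM in LMO. Of the 5 GC markers tested 4 had a lower mean log2 level in HMO, whereas GJA1 had a difference of 0.47 (limma's unadjusted p 0.0502), and STAR was the only one of the 5 at an unadjusted p under 0.05. The part of STAR in the values of SMAD4 and BMP15 was not tested.

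In small follicles no member stood out. SMAD5, with 8.06, 8.84, 10.3 and 15.1 FPKM in HSO replicates 1, 3, 4 and 5 and 4.99, 8.02, 6.82, 8.14 and 11.4 FPKM in LSO, had the log2 difference farthest from 0, 0.39 (95% interval -0.32 to 1.10). GDF9 had 0.30 (95% interval -1.17 to 1.77), which turned to -0.21 without HSO replicate 5, and BMP15 had -0.23 (95% interval -1.01 to 0.55). Limma's test put 0 of the 10 genes past an adjusted p of 0.05 (0.0119% of the 8376 genes tested) and 0 at an unadjusted p under 0.05 (4.41%), the exact permutation test put 0 at an unadjusted p under 0.05 (6.08%), and 0 were free of overlap (2.05%).

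Over all follicle sizes, with size as a covariate, the high and low fertility groups did not differ detectably in any member. The log2 difference was 0.31 for GDF9 (95% interval -0.61 to 1.23), -0.33 for BMP15 (95% interval -0.78 to 0.11), -0.19 for SMAD3 (95% interval -0.42 to 0.04) and -0.18 for BMPR2 (95% interval -0.41 to 0.05). Without the 3 libraries that stood apart the GDF9 difference was -0.11. SMAD4 and BMPR1B lay closest to 0, with -0.02 (95% interval -0.25 to 0.21) and 0.05 (95% interval -0.22 to 0.31). In limma's test 0 of the 10 passed an adjusted p of 0.05, against 0.0103% of the 9692 genes tested, and 0 had an unadjusted p under 0.05, against 9.99% of all genes.

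**Figure D3:**
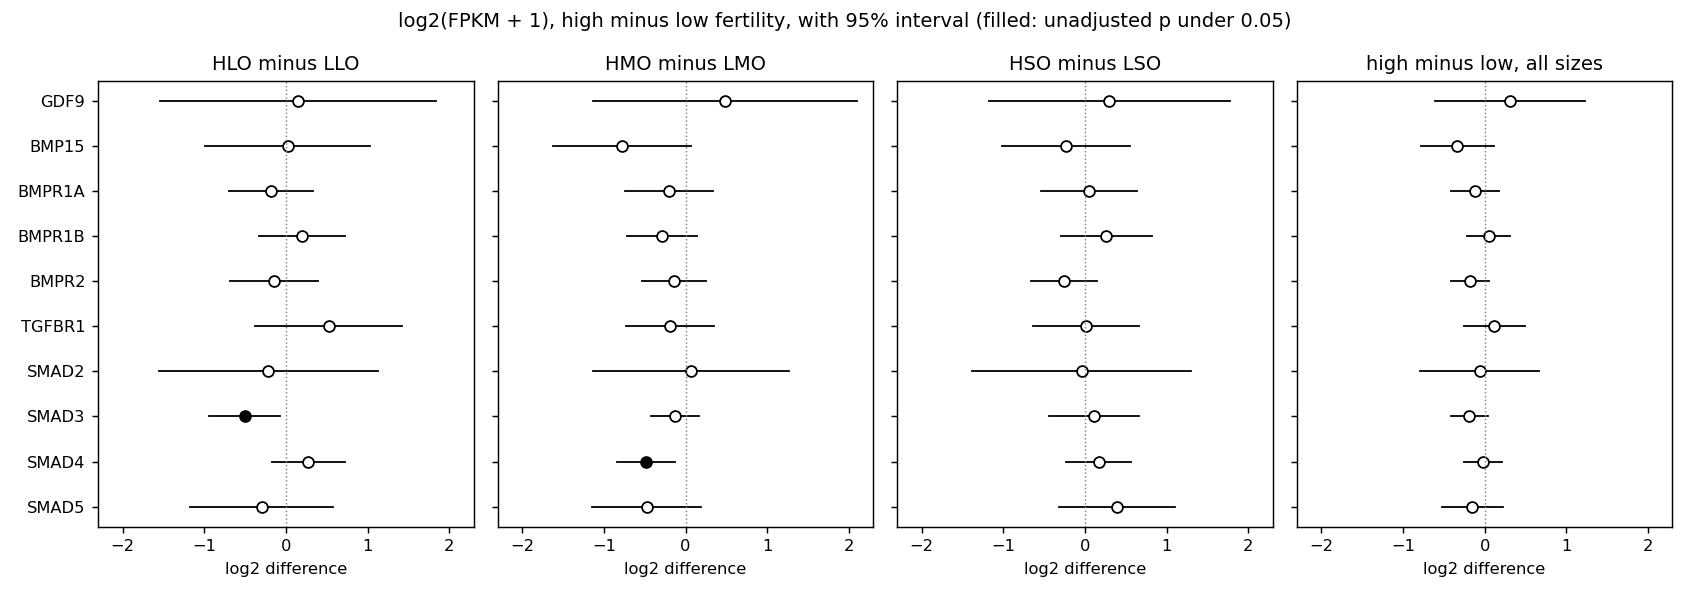
Difference of high minus low fertility in log2(FPKM + 1) for the 10 genes in large, medium and small follicles and over all sizes, with points for estimates, lines for 95% intervals and filled points for limma's unadjusted p under 0.05. SMAD3 in large follicles (-0.51) and SMAD4 in medium follicles (-0.48) are filled, and the intervals of GDF9 and SMAD2 are the widest.

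The next question is whether the levels follow follicle size. TGFBR1, the receptor used by GDF9, was the member with the clearest order over both fertility groups. It had 3.49, 3.61, 2.56, 2.41 and 3.95 FPKM in HMO and 4.12, 4.14, 2.39, 4.02 and 4.33 FPKM in LMO. In small follicles it had 5.16, 3.45, 6.34 and 2.85 FPKM in HSO and 5.60, 3.18, 4.14, 4.62 and 3.98 FPKM in LSO. All sizes overlapped. The group means ran from 4.45 ± 1.60 FPKM (SD, n = 4) in HSO to 2.22 ± 1.77 FPKM (SD, n = 5) in LLO, with both groups of small follicles highest and both groups of large follicles lowest. The log2 difference of large minus small follicles was -0.65 (95% interval -1.12 to -0.19; limma's unadjusted p 0.00710, adjusted p 0.996). At an unadjusted p under 0.05 in this contrast, TGFBR1 was 1 of 10 members, with 372 of the 9692 genes tested.

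In limma's F-test over the 3 sizes, with fertility as a covariate, TGFBR1 had an F of 4.30 and an unadjusted p of 0.0229. It was 1 of 10 members at that limit, against 1.66% of the 9692 genes tested, and 0 of 10 passed an adjusted p of 0.05, as did 0% of all genes. The TGFBR1 value rested on LLO: leaving out LLO replicate 2 gave an unadjusted p of 0.0612 in limma, leaving out LLO replicate 5 gave 0.0626, and leaving out the 3 libraries that stood apart gave 0.134. Within the low fertility group the TGFBR1 log2 difference of LLO minus LSO was -0.91 (95% interval -1.53 to -0.28; limma's unadjusted p 0.00630, adjusted p 0.413). At an unadjusted p under 0.05 in that contrast, TGFBR1 was 1 of 10 members, with 971 of the 9692 genes tested. In the high fertility group HLO minus HSO was -0.39 (95% interval -1.06 to 0.27; limma's unadjusted p 0.239). HLO minus HMO was -0.05 (95% interval -0.68 to 0.58, limma's unadjusted p 0.876). Other members did differ in that group at an unadjusted p under 0.05. SMAD3 had -0.45 for HLO minus HSO (95% interval -0.84 to -0.06, limma's unadjusted p 0.0265), with 79 of the 9692 genes tested. SMAD4 had 0.42 for HLO minus HMO (95% interval 0.07 to 0.76, limma's unadjusted p 0.0191), with 372 of the 9692. Each was 1 of 10 members, and 0 passed an adjusted p of 0.05. SMAD3 exceeded 0.5 FPKM in 1 HLO sample and SMAD4 in 1 HMO sample. For the ligands the F-test over sizes gave an F of 0.975 (p 0.389) for GDF9 and 0.527 (p 0.596) for BMP15 in limma.

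The difference between fertility groups was also compared between follicle sizes. Among the 10 members SMAD4 had the clearest pattern of this kind, with a lower mean in HMO than in LMO and a higher mean in HLO than in LLO. SMAD4 had 0.881, 0.753, 0.532, 0.692 and 0.791 FPKM in HLO and 0.186, 0.488, 0.517, 0.0725 and 1.08 FPKM in LLO. All but 1 of the LLO samples lay below the lowest HLO sample, and LLO replicate 5 was the highest of all samples. In HSO it had 0.746, 0.637, 0.718 and 0.428 FPKM, and in LSO 0.129, 0.441, 0.373, 0.412 and 1.01 FPKM. The log2 difference of high minus low fertility was larger in large than in medium follicles by 0.75 (95% interval 0.27 to 1.24; limma's unadjusted p 0.00350, adjusted p 0.248). Medium minus small follicles gave -0.65 (95% interval -1.15 to -0.15; limma's unadjusted p 0.0123, adjusted p 0.449). At an unadjusted p under 0.05, SMAD4 was 1 of 10 members in each of these contrasts. Of the 9692 genes tested, 1050 were under that limit in the first contrast and 678 in the second.

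The interaction F of SMAD4 was 5.93 (limma's unadjusted p 0.00720, adjusted p 0.339). SMAD4 was the only member at an unadjusted p under 0.05, 1 of 10 against 7.89% of the 9692 genes tested, and 0 of 10 passed an adjusted p of 0.05 in limma's test, as did 0% of all genes. With any sample left out its unadjusted p in limma's test stayed between 0.00118 and 0.0225. With limma's array weights SMAD4 passed with an adjusted p of 0.0287, a setting that called 231 of the 9692 genes (2.38%). SMAD4 exceeded 0.5 FPKM in 5 HLO, 4 LMO and 3 HSO samples, against 1 HMO, 1 LSO and 2 LLO samples. It thus met the filter mainly through the groups in which it was higher, so this range and this call add no support of their own. SMAD4 was at most 1.08 FPKM in every sample, where the scale log2(FPKM + 1) compresses differences and where FPKM give no measure of counting error. STAR differed in the same directions as SMAD4 in large and in medium follicles. So did SERPINE2, another of the GC markers (log2 differences 0.26 and -0.16). HAS2 and INHBA also did in medium follicles (-0.18 and -0.57). GJA1 differed in the opposite direction in both sizes (-0.17 and 0.47), and HAS2 in large follicles (-0.53). The part of STAR in the SMAD4 values was not tested. SMAD3 had 0.548, 0.403, 0.504, 0.332 and 0.692 FPKM in HMO and 0.498, 0.845, 0.584, 0.561 and 0.706 FPKM in LMO. In small follicles it had 0.988, 0.513, 0.557 and 1.70 FPKM in HSO and 1.22, 0.392, 0.249, 1.14 and 0.961 FPKM in LSO. The fertility groups overlapped in both sizes, and the log2 difference of high minus low fertility in large minus small follicles was -0.62 (95% interval -1.15 to -0.08; limma's unadjusted p 0.0256, adjusted p 0.945). At an unadjusted p under 0.05 in that contrast, SMAD3 was 1 of 10 members, with 286 of the 9692 genes tested. Over all sizes the interaction F of SMAD3 was 2.85 (limma's unadjusted p 0.0748).

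For the ligands the interaction F was 0.0453 (limma's p 0.956) in GDF9 and 1.22 (limma's p 0.309) in BMP15.

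Across the 29 samples GDF9 and SMAD2 varied together, and GDF9 and BMP15 did not. SMAD2 had 14.5, 3.02, 3.57, 2.33 and 19.5 FPKM in HLO, and 12.6, 3.12, 3.37, 17.3 and 8.11 FPKM in LLO. It had 15.03, 4.15, 5.18, 4.61 and 13.1 FPKM in HMO, and 7.65, 1.96, 3.10, 16.3 and 16.4 FPKM in LMO. In small follicles it had 10.05, 2.89, 7.67 and 19.3 FPKM in HSO, and 12.3, 2.78, 4.04, 15.98 and 18.0 FPKM in LSO. In each of the 6 groups the 2 samples with the most GDF9 were also the 2 with the most SMAD2.

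On log2(FPKM + 1) the correlation of GDF9 with SMAD2 was r = 0.910 and rho = 0.910 (permutation test with 100000 resamples, p = 1e-05 for both, the smallest they can give; adjusted over the 45 pairs of members, 0.000450 and 0.000225). It was 0.935 without the 2 samples farthest from the median of GDF9, 0.937 without the 3 libraries that stood apart and 0.928 after centring on the group means. Within the numbers that hold 6 samples, r was 0.591 in number 1, 0.653 in number 3, 0.952 in number 4 and 0.828 in number 5. Both genes also moved with the number of genes above 0.5 FPKM, GDF9 with r = 0.852 and rho = 0.861 and SMAD2 with r = 0.909 and rho = 0.863 (permutation test, p = 1e-05 for each, adjusted over the 3 genes examined 1.50e-05). The part of this number in the correlation of GDF9 with SMAD2 was not tested.

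For GDF9 and BMP15 the correlation over the 29 samples was r = -0.0235 and rho = 0.0601 (permutation test, p = 0.902 and 0.753; adjusted 0.902 and 0.868). It was 0.259 without the 2 samples farthest from the median of GDF9 and 0.273 without the 3 libraries that stood apart. Within the numbers of 6 samples it ran from -0.894 in number 1 to 0.537 in number 4, so the ligands had no common course. BMP15 moved less with the number of genes above 0.5 FPKM, with r = 0.340 (permutation p = 0.0716) and rho = 0.382 (permutation p = 0.0419).

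**Figure D4:**
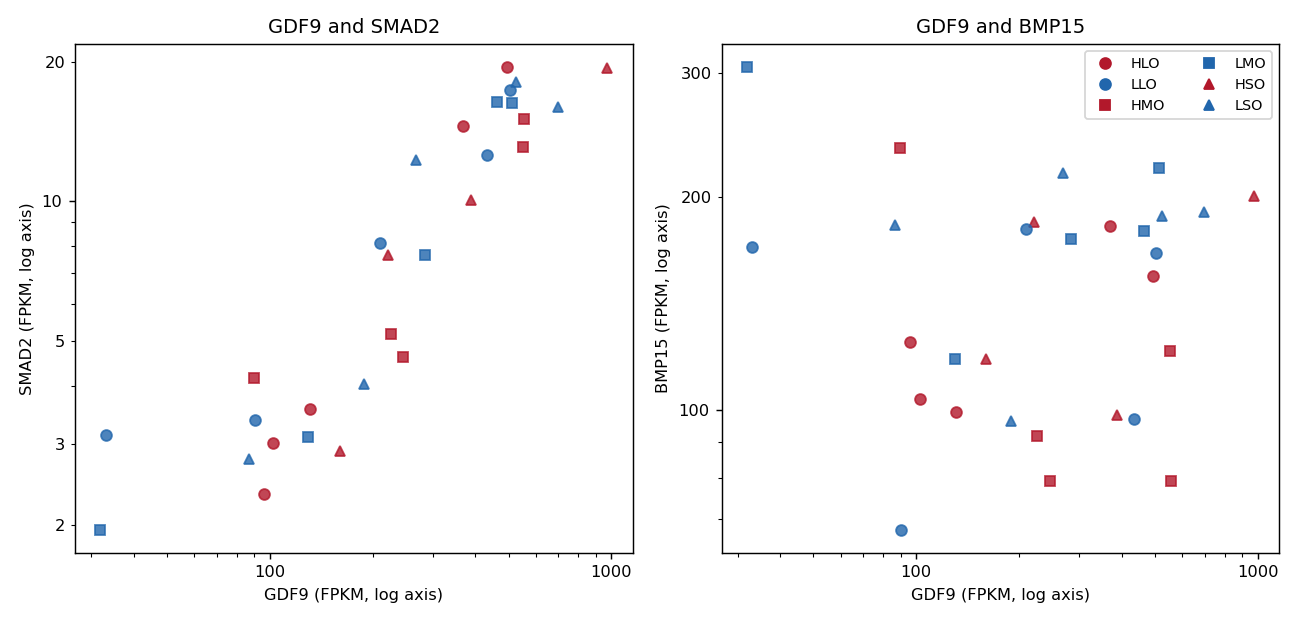
SMAD2 (left) and BMP15 (right) against GDF9 in FPKM on log axes, where each point is 1 of the 29 samples, red is the high and blue the low fertility group, and circles, squares and triangles are large, medium and small follicles. SMAD2 climbs with GDF9 across all groups (r = 0.910), whereas BMP15 shows no common course with GDF9 (r = -0.0235).

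SMAD5 was the member whose level followed BMP15 most closely. SMAD5 had 8.12, 17.1, 7.24, 7.41 and 16.4 FPKM in LLO and 7.30, 14.1, 6.52, 10.4 and 11.1 FPKM in LMO. The highest values of both groups were in replicate 2, which in both was a library that stood apart. BMP15 was 170 FPKM in LLO replicate 2, below the 180 FPKM of LLO replicate 5. In LMO replicate 2 it was 306 FPKM, the highest of LMO. The correlation of BMP15 with SMAD5 was r = 0.615 and rho = 0.600 (permutation test, adjusted p 0.00352 and 0.00467), 0.596 without the 2 samples farthest from the median of BMP15 and 0.587 without the 3 libraries that stood apart. Within the numbers it did not hold throughout, with r of -0.0173 in number 1, 0.217 in number 3, 0.870 in number 4 and 0.863 in number 5.

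Of the 45 pairs of members, 14 passed an adjusted p of 0.05 by both measures in the permutation test, and all 14 were positive. The share of such pairs among all genes was not computed. Positive correlation was common, with a median rho of 0.405 with GDF9 over all genes tested. The resamples also shuffled the samples without regard to replicate number. The count therefore does not set the members apart. Within each of the numbers 1, 3, 4 and 5 the correlation stayed positive in 5 of these 14. GDF9 with BMPR1A (r = 0.542) and GDF9 with BMPR1B (r = 0.613) were among the 14 and turned negative in number 3. The same holds for BMPR1A with SMAD2 (r = 0.744), which was -0.0621 in number 3 and -0.450 in number 5.

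Correlation with GDF9 was common among all genes, so the members were placed among the 9691 other genes tested. The median Spearman correlation with GDF9 over all these genes was 0.405. SMAD2 stood high among them, since only 73 genes (0.753%) had a correlation with GDF9 as high as its rho of 0.910. BMPR1B, BMPR1A and BMPR2 had 31.7%, 33.5% and 45.9% of genes at or above them, and SMAD3, TGFBR1, BMP15, SMAD5 and SMAD4 lay below the median. For BMP15 the median over all genes was 0.186, and SMAD5 had 417 genes (4.30%) at or above its rho of 0.600. The other 7 receptors and SMADs had 20.8% to 46.6% of genes at or above them.

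The genes whose levels were most like GDF9 over the 29 samples, by Spearman correlation of FPKM, were SDHC, a subunit of mitochondrial succinate dehydrogenase (rho 0.960), CXorf58 (rho 0.951) and POLR2D, a subunit of RNA polymerase II (rho 0.949). Those most like BMP15 were TMEM87B (rho 0.863), NLRP14, a gene of the NLRP family expressed in oocytes (rho 0.859), and OTUD4, a deubiquitinase (rho 0.834). These samples share their libraries' depth and composition, so the values describe likeness only.

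**Figure D5:**
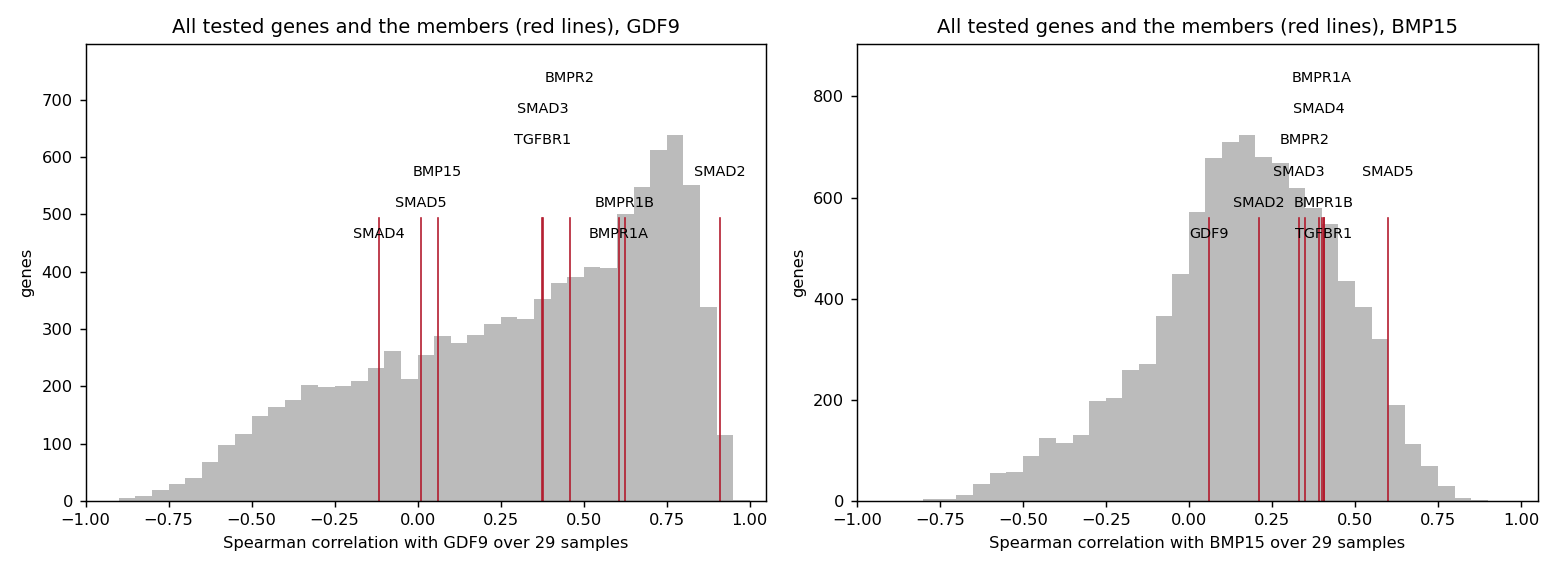
Number of tested genes by their Spearman correlation with GDF9 (left) and with BMP15 (right) over 29 samples, in grey bars, with red lines at the other 9 members. SMAD2 lies in the far right tail for GDF9 (0.910) and SMAD5 is the rightmost member for BMP15 (0.600), whereas the median of all genes is 0.405 for GDF9 and 0.186 for BMP15.

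Other genes of the pathway were examined in 6 lists with 101 gene IDs in the table, of which 23 were listed at 0 in all samples. Among other ligands of the superfamily, 7 of 30 exceeded 0.5 FPKM in at least 4 samples, and 10 were listed at 0 throughout. GDF3 had a mean of 198 FPKM, higher than that of BMP15, followed by GDF1 with 9.36 FPKM and BMP4 with 1.48 FPKM. Among other receptors and co-receptors 6 of 13 exceeded the same limit, led by ACVR1, a type I receptor for bone morphogenetic proteins, with 11.3 FPKM, ACVR1B, a type I receptor for activins, with 5.59 FPKM, and the co-receptor TGFBR3 with 2.48 FPKM. Both ACVR1 and ACVR1B thus had higher mean levels per length than any of the 4 receptors described above.

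Of the other SMADs, SMAD1, which belongs to the branch of SMAD5, had 4.77 FPKM on average and the inhibitory SMAD7 1.62 FPKM, whereas SMAD9 had 0.138 FPKM. Among antagonists and inhibitors 11 of 23 exceeded 0.5 FPKM in at least 4 samples, led by CHRDL2, a secreted antagonist of bone morphogenetic proteins, with 2.80 FPKM, SMURF2, a ubiquitin ligase for SMADs and their receptors, with 2.76 FPKM, and BMPER, which binds bone morphogenetic proteins outside the cell, with 2.21 FPKM. Among the genes of processing and trafficking 9 of 16 did, led by USP15, a deubiquitinase of SMADs, with 12.3 FPKM, FKBP1A, which binds type I receptors and whose symbol is carried by 4 gene IDs, with 6.18 FPKM, and STRAP, which works with SMAD7, with 5.91 FPKM. Of the target genes 3 of 15 did, with MSX1 at 33.0 FPKM and ID3 at 24.5 FPKM.

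Between the fertility groups over all sizes, 38 of the listed genes were tested by limma, and 0 passed an adjusted p of 0.05. At an unadjusted p under 0.05, 0 were higher (3.39% of all genes tested) and 5 lower in the high fertility group, the latter 13.2% of the 38 against 6.59% of all genes tested. The receptors ACVR1B and ACVR1 were among the 5 and were picked out after their differences were seen. The others, TGIF2, ZFYVE16 and INHBB, had means of 0.849, 0.367 and 0.241 FPKM. They exceeded 0.5 FPKM in 20, 6 and 7 of the 29 samples, so ZFYVE16 and INHBB lay near the limit of the filter. ACVR1B had a log2 difference of -0.56 (limma's unadjusted p 0.0118, adjusted p 0.427) and ACVR1 one of -0.36 (limma's unadjusted p 0.0472, adjusted p 0.497).

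In medium follicles, 2 of the 32 listed genes tested were higher and 5 lower in HMO at an unadjusted p under 0.05 in limma's test, which is 6.25% and 15.6% against 5.09% and 3.58% of all genes, and 0 passed after adjustment. In large and in small follicles 0 of the 30 and 31 genes tested reached an unadjusted p under 0.05 in limma's test.

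Within a follicle size, 2 of the listed genes had groups that did not overlap, both in medium follicles, where 32 listed genes were tested and 1.70% of all genes did not overlap. BMPER had 1.60 to 4.73 FPKM in HMO and 0.426 to 1.01 FPKM in LMO, a log2 difference of 1.12 (limma's unadjusted p 0.000404, adjusted p 0.133). LTBP1, which binds latent transforming growth factor-beta outside the cell, had 1.18 to 2.13 FPKM in HMO and 2.29 to 7.72 FPKM in LMO, a log2 difference of -0.94 (limma's unadjusted p 0.00643, adjusted p 0.293). The symbol LTBP1 is carried by a further gene ID that was listed at 0, so its reads are uncertain. In large and small follicles BMPER and LTBP1 overlapped between the fertility groups.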

How the data were processed

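RNA of 29 oocyte samples of Capra hircus was analysed. Per the methods, polyadenylated RNA was sequenced, reads were aligned to the goat genome, unique matches with less than 5 mismatches were kept, and duplicates were removed with picard. The authors deposited FPKM per gene and sample, which Cufflinks 2.2.1 gave from the Ensembl annotation. The aligner, the genome build and the strand setting are not given in the sources used here, so no coordinates are printed, and read depth cannot be taken from FPKM. In the table, 1 column of a sample that is not in use was left out. No pair of samples held identical values.

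Groups were taken from the sample labels. Values were tested as log2(FPKM + 1). A gene entered a comparison when 4 or more of its samples exceeded 0.5 FPKM. The test was limma's moderated test with a trend (limma 3.58.1 in R 4.3.3), with Benjamini-Hochberg adjustment over all genes tested. Fits covered each follicle size, fertility over all sizes, the 3 sizes and the interaction. Exact permutation tests over samples stood beside them, and correlations used 100000 resamples. The procedure was tested on simulated data with 200 genes changed. Only genes of higher level were changed, by more than any member difference given above, and without spread that goes with replicate number. This test therefore does not cover the receptors, SMAD3 and SMAD4. Python 3.11.15 with pandas 2.3.3, numpy 2.4.6, scipy 1.17.1 and matplotlib 3.10.9 was used for the rest. Gene overlaps were taken from RefSeq, assembly ARS1.2, in which all 10 symbols matched.

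Alternatives were pseudocounts of 0.1 and 0.5, a filter at 1 FPKM or none, a replicate block, array weights, scaling by quantiles or by median-of-ratios factors, 1 fit over all samples and each sample left out in turn. Leaving out the 3 libraries that stood apart was chosen after seeing the data.

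The members and the lists were chosen with earlier results of these data known. The genes named were the 10 members, the 3 genes most correlated with each ligand among symbols carried by 1 gene ID, and, of each pathway list, the 3 of highest mean FPKM, any past an adjusted p of 0.05 and any whose fertility groups did not overlap in a follicle size. ACVR1B and ACVR1 were also picked out after their differences were seen. TGIF2, ZFYVE16 and INHBB were named to complete the listed genes lower in high fertility, and SMAD7 and SMAD9 complete a short list. A result that the rule would name among the target genes is not reported here. The pathway lists held other ligands, other receptors and co-receptors, other SMADs, antagonists and inhibitors, processing and trafficking, and target genes. Marker lists of oocytes, GCs and cumulus cells, theca and stroma, and leukocytes were summed per sample.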

Additional observations from a re-analysis of the deposited data

Results flagged for a closer look

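In 5 of the 60 combinations of a member and a group examined, a sample's distance to the nearest of the others took up most of the group's range, past Dixon's 95% critical value. Chance marks about 1 in 20 groups. BMP15 in HMO replicate 2 had 235 FPKM, against 79.3 to 121 FPKM in the other HMO samples. BMP15 in LSO replicate 3 had 96.4 FPKM, against 182 to 216 FPKM in the others. TGFBR1 in LMO replicate 3 had 2.39 FPKM, against 4.02 to 4.33 FPKM in the others. SMAD3 in LLO replicate 5 had 1.79 FPKM, against 0.607 to 0.915 FPKM in the others. SMAD4 in LMO replicate 3 had 0.492 FPKM, against 0.864 to 0.944 FPKM in the others. LMO replicate 3 was thus marked for both TGFBR1 and SMAD4, and LLO replicate 5 is among the libraries that stood apart.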

How the results depend on the processing

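With limma's adjusted p, 0 of the 10 members were called in each of the 6 comparisons, and 0 were called in any fit with a sample left out (10, 10 and 9 fits for large, medium and small follicles and 29 for each of the others). Of 1731 member values under alternatives, 1727 kept their direction or stayed without a call, 71 of these with a changed sign, and 4 became calls. All 4 came from array weights, which gave 3 members between HMO and LMO (BMP15, BMPR1B and SMAD4) and 1 in the interaction (SMAD4, F 10.4, limma's adjusted p 0.0287). The cause was not tested. With a limit of 1 FPKM, 6 members could be tested in large and in medium follicles, since SMAD3, SMAD4 and other members of low level failed that filter. Median-of-ratios and quantile scaling moved the median of all genes by less than 0.1 on the log2 scale in each fertility comparison. They did move the counts by direction. Over all sizes, 329 genes were higher and 639 lower in high fertility at limma's unadjusted p under 0.05. With median-of-ratios scaling these counts were 597 and 410, and with quantile scaling 384 and 586. In medium follicles, 427 higher and 300 lower became 620 and 198 with median-of-ratios scaling. The shares by direction given above hold for values without such scaling. FPKM without read counts give no counting error, which limits what can be said of the members below 1 FPKM.

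The samples were not treated as pairs by replicate number, although part of the spread went with it. In 10 of 14 pairs of samples with the same number the deviations from the group means correlated above 0.1. In the 3 pairs numbered 4 the correlation was -0.05, -0.41 and -0.48, and in HSO against LSO number 1 it was -0.0014. Of the 28 samples in the 14 pairs, 15 correlated best with the sample of their own number. The main fits held no term for the number, so spread that goes with it stays in their error. With the number as a replicate block, limma called 0 members in each comparison, and the genes called overall were 127 between HMO and LMO against 6 without the block, and 70 against 0 in the interaction.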
